A study of Mus musculus with 2 samples.

Results

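Cytosolic ribosomal protein genes were described in microglia, the resident macrophages of the brain, sorted from 2 regions of the mouse corpus callosum, medial and lateral. The members were 87 of the 27933 gene symbols in the count tables. They were taken by name: symbols of Rpl or Rps followed by a digit, with Rplp0, Rplp1, Rplp2 and Rpsa, and without the kinases of the Rps6k family and symbols that mark processed copies with -ps. Of the 87 symbols, 53 carried a large subunit name and 34 a small subunit name. Among them were 8 copies of other members and 2 genes of another function, Rps19bp1 and Rpl7l1, which left 77 core ribosomal proteins, 46 large and 31 small.

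Both groups came from C57Bl6 mice with the genotype CX3CR1 that had received cuprizone for 4 weeks, a copper chelator in the diet that kills oligodendrocytes and strips the corpus callosum of its myelin. The medial group and the lateral group were each 1 library of single-cell 3' RNA, made from freshly sorted cells without culture. The sources used here do not give the allele at CX3CR1, the number, sex and age of the mice or the sorting gate, and no mice without cuprizone were analysed here. With 1 library per region there was no replicate error to test against, so the values describe 2 libraries and every interval is a 95% interval that covers counting error only.

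The ribosome joins a large subunit, which forms peptide bonds, to a small subunit, which reads the mRNA, and each subunit carries 1 copy of nearly every one of its proteins. Messages for these proteins are among the most abundant in growing cells. Most begin with a run of pyrimidines at the cap, the TOP motif, through which mTOR signalling controls their translation, and Larp1 binds that motif. Ribosomal proteins have also left many processed pseudogenes in mammalian genomes, so that reads from a member can match other places.

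The medial library held 2131 cells and the lateral 2308, each a barcode of at least 2400 unique molecular identifiers (UMIs) and at most 10% mitochondrial UMIs. The cells held 23442512 and 23047682 UMIs, with medians of 10732 and 9694 UMIs per cell and 2.23% and 2.48% mitochondrial UMIs. The libraries shared 7 cell barcodes. All 13 microglial markers were detected in each library and came to 221 of every 10000 UMIs in medial cells and to 221 in lateral ones. For other cell types, 10 marker lists were read, and the one with most UMIs, for endothelial cells, reached 1.14 per 10000 in medial and 0.981 in lateral cells. At least 1 UMI of that list stood in 65.6% of medial and 55.2% of lateral cells, of the 6 oligodendrocyte markers in 45.6% and 41.4%, and of the 7 markers of border macrophages in 28.9% and 22.4%. Of these lists Ly6c1, 2 oligodendrocyte markers (Mog and Mobp) and 2 border macrophage markers (Cd163 and Lyve1) were at 0 in both libraries, and their other markers were detected in at least 1. Ly6g, Aqp4 and Cd3e were at 0 in both as well, but other markers of their lists were detected. At least 1 UMI of the astrocyte list stood in 1.03% of medial and 1.73% of lateral cells. For the neutrophil list it was 0.657% and 0.477%, and for the T or NK cell list 0.0939% and 0.0433%. The part of such cells or of their free RNA in the ratios was not tested.

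Members can only be read as well as they can be told from each other. The Rps27 copies show both ends of that range, and are printed for it. The coding sequence of Rps27rt was identical to that of Rps27 over all 252 bases, while Rps27l differed from Rps27 at 60 of them, an identity of 76.2%. The stretch below covers coding bases 7 to 36 of each gene, 5′ to 3′ on the coding strand in GRCm38, with the 13 positions at which not all copies agree in capitals.
Rps27 (chr3:90213272-90213301, minus strand): ctCgcAaAGgatctCCtTcaTccCtcTCCA
Rps27rt (chr9:114982672-114982701, minus strand): ctCgcAaAGgatctCCtTcaTccCtcTCCA
Rps27l (chr9:66946831-66946860, plus strand): ctGgcTaGAgatctGTtAcaCccTtcCTTG
A read inside this stretch can be given to Rps27l, but not to Rps27 rather than Rps27rt. Rpl39 and its copy Rpl39l, which is best known from testis, differed at 23 of 153 coding bases, an identity of 85.0%. Coding bases 115 to 144 hold 8 of those differences, again in capitals.
Rpl39 (chrX:37082713-37082742, minus strand): tcTaagAgAagacaCtggagGAgaacGaaG
Rpl39l (chr16:10174424-10174453, plus strand): tcCaagCgGagacaTtggagACgaacCaaA

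The starts of the genes were set side by side for the TOP motif. An unbroken run of at least 5 C or T was looked for on the sense strand, touching the bases from 2 before the start to the fourth base of the transcript, in RefSeq promoter entries (GRCm38.p6). An entry was found for 66 of the 87 members, and 29 of these 66 (43.9%) held such a run, against 24.3% of 27025 genes with an entry and 18 of 68 mitochondrial ribosomal proteins (26.5%). Of the 16 members that were past 1.2-fold higher in the medial library, 14 had an entry and 8 held a run, and so did 21 of 50 members within 1.2-fold. The windows below run from 10 bases before to 20 bases after the annotated start, with the run in capitals, for 5 members past that fold and for Rpl13a and Rps6 within it.
Rpl15 (chr14:18270967-18270996, minus strand): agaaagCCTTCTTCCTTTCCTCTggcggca
Rpl35 (chr2:39005112-39005141, minus strand): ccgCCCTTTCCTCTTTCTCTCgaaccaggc
Rpl38 (chr11:114668570-114668599, plus strand): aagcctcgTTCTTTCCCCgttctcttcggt
Rps27 (chr3:90213629-90213658, minus strand): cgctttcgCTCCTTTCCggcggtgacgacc
Rps28 (chr17:33824543-33824572, minus strand): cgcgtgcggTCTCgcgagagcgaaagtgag
Rpl13a (chr7:45128726-45128755, minus strand): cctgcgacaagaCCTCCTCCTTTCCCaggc
Rps6 (chr4:86857348-86857377, minus strand): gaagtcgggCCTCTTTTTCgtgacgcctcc
Long runs thus stood both in members higher in the medial library, such as Rpl15, and in members near a ratio of 1, such as Rps6. Rps28 showed a run of 4 bases, short of the limit of 5. An annotated start need not be the start used in microglia.

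Ribosomal protein UMIs made up 15.6% of all UMIs in medial cells (3665711 UMIs) and 14.5% in lateral cells (3336967 UMIs). On the log2 scale the medial share was higher by 0.11 (0.11 to 0.11). Large subunit names took 9.11% of medial and 8.43% of lateral UMIs, and small subunit names 6.53% and 6.05%, each a log2 ratio of 0.11. Without the members of at least 90% shared coding windows, described further on, the log2 ratio was 0.098 for large and 0.059 for small subunit names. Mitochondrially encoded genes ran the other way, at 2.28% of medial and 2.52% of lateral UMIs, log2 ratio -0.14. Free RNA, the barcodes of 1 to 100 UMIs that hold no called cell, had ribosomal protein shares of 15.4% (medial) and 14.3% (lateral).

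Most members were close to a ratio of 1. Counting UMIs over both libraries, 85 members reached the minimum of 100, and of these 68 lay within 1.2-fold, 16 (18.8%) were past 1.2-fold higher in medial cells and 1 was past 1.2-fold lower. Over all 9843 genes with at least 100 UMIs, 7.42% were past 1.2-fold higher and 7.49% past 1.2-fold lower in the medial library. Most members had far more than 100 UMIs, and the shares over genes of like counts were not taken. The median log2 ratio was 0.10 over the members and -0.04 over all genes. By subunit the median was 0.12 for 51 large subunit names, with 10 past the fold higher and 1 lower, and 0.09 for 34 small subunit names, with 6 higher and 0 lower. The other 2 members, Rpl3l and Rpl10l, had too few UMIs to be counted.

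**Figure D1:**
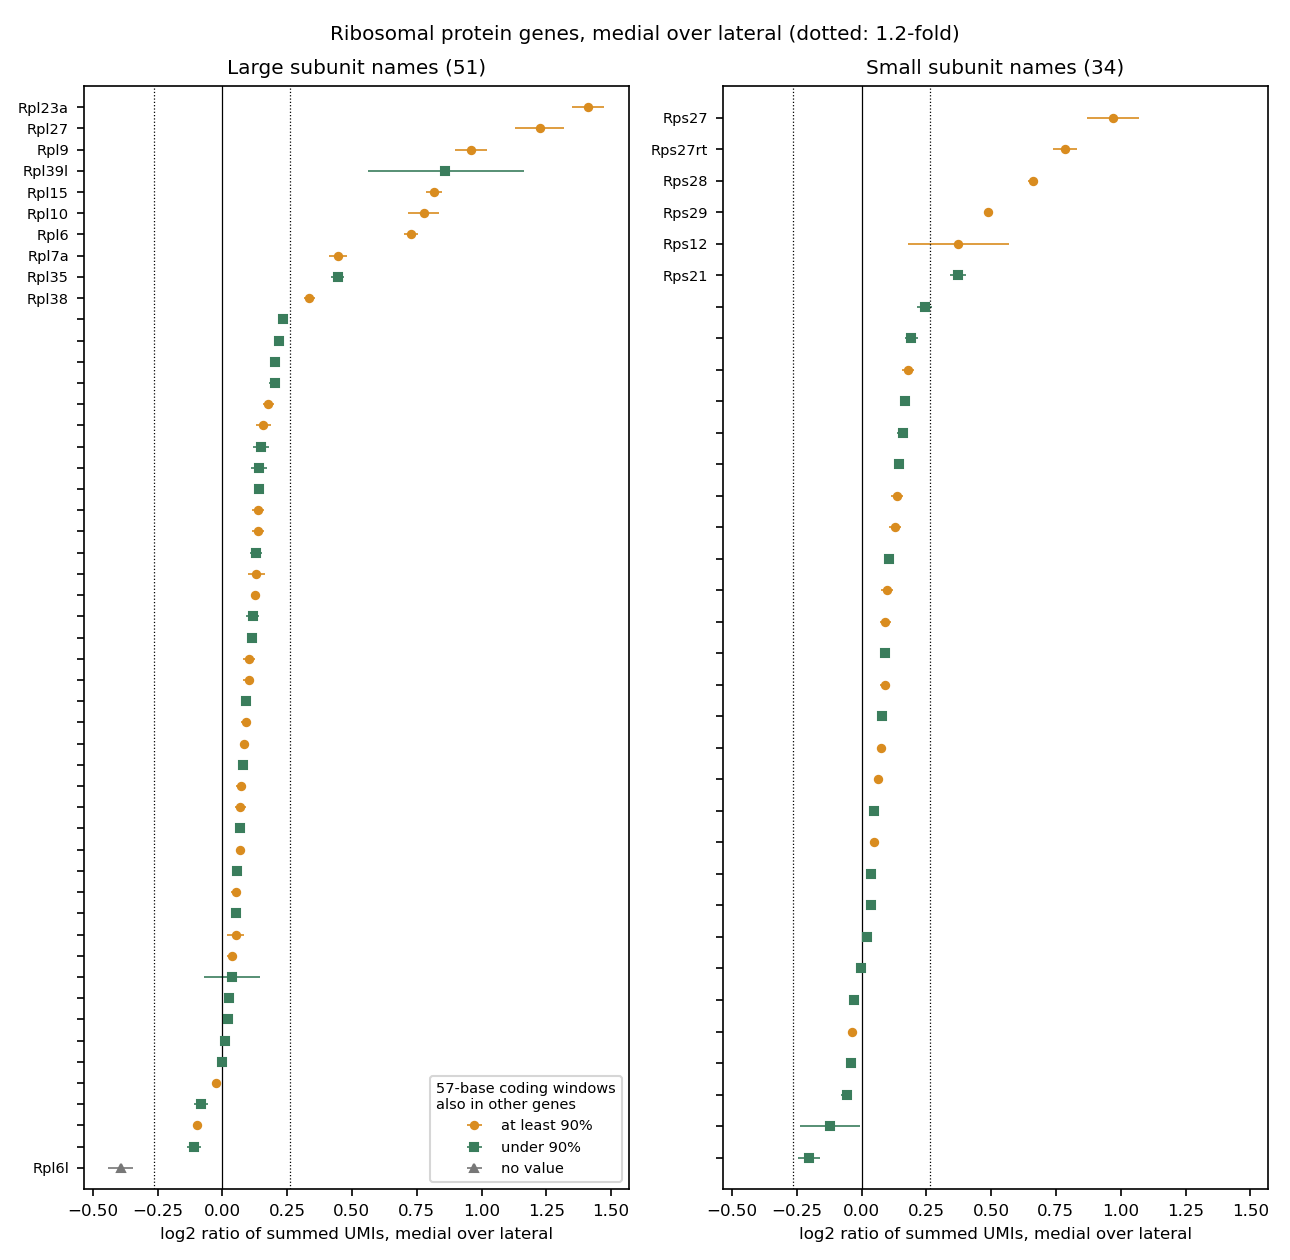
Each point is 1 member past the UMI minimum, placed by its log2 ratio of summed UMIs, medial over lateral, with its 95% counting interval, for 51 large subunit names (left) and 34 small subunit names (right); dotted lines mark 1.2-fold. Most members lie between a ratio of 1 and 1.2-fold, 16 lie past it to the right, and colour and shape give the share of their coding windows also found in other genes; names stand beside the members past the fold.

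The 16 members past the fold held a small part of the total. Together they took 1.45% of medial and 0.976% of lateral UMIs, a log2 ratio of 0.57. The 68 members within 1.2-fold took 14.2% and 13.5%, a log2 ratio of 0.07. Per cell, the 16 higher members had a median share of 1.45% of UMIs for medial cells (5th to 95th percentile 0.882% to 2.11%) and 0.983% in lateral cells (0.581% to 1.52%). These ranges overlap, although the medial 25th percentile, 1.23%, stood above the lateral 75th percentile, 1.18%. Choosing the 16 by this contrast fixes the direction of their sum.

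The members with most UMIs differed little. UMI counts give 1 tag per molecule whatever the length of the transcript, so levels are given as counts scaled to a fixed total (CPM, the same scale in both libraries) and are not divided by length. Of the large subunit names, Rpl41, the shortest protein of the ribosome with 75 coding bases, had 4843 CPM in medial and 4437 CPM in lateral cells, log2 ratio 0.13. Rpl32, with 4220 and 4057 CPM, had a log2 ratio of 0.06. Rpl13 ran slightly the other way, with 4178 CPM in medial and 4246 CPM in lateral cells, log2 ratio -0.02. Rpl37a stood at 3747 and 3252 CPM, log2 ratio 0.20.

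Among small subunit names, Rps29 was the exception, being both abundant and past the fold. Its level was 4195 CPM in medial cells (98338 UMIs) and 2989 CPM in lateral cells (68882 UMIs), log2 ratio 0.49 (0.48 to 0.50). Rps19, a gene mutated in Diamond-Blackfan anaemia, had 3675 and 3752 CPM, log2 ratio -0.03. Rps14 had 3243 and 3160 CPM and Rps23 2951 and 2853 CPM, with log2 ratios of 0.04 and 0.05. Rps18 had 2940 and 2946 CPM, and its interval held a ratio of 1. Each of these members of high count was detected in at least 99.9% of medial and 99.78% of lateral cells.

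The widest differences were in members of low count. Rpl23a, which lies at the exit of the peptide tunnel, had 339 CPM in medial cells (7939 UMIs) and 127 CPM in lateral cells (2933 UMIs), log2 ratio 1.41 (1.35 to 1.47). It was detected in 90.6% of medial and 66.4% of lateral cells. Rpl27 had 134 CPM in medial and 57.2 CPM in lateral cells, log2 ratio 1.22 (1.13 to 1.32). Both genes lie on chromosome 11, at 78180932 to 78183584 and 101442298 to 101445529 of GRCm38 in GENCODE M21. In the large subunit Rpl9 followed with 270 CPM in medial and 139 CPM in lateral cells, log2 ratio 0.96 (0.90 to 1.02). Summed with their -ps copies, which the rule leaves out, Rpl23a, Rpl27 and Rpl9 had lower log2 ratios of 0.69, 0.79 and 0.41. Rpl39l was sparse, with 264 UMIs in medial and 143 in lateral cells, log2 ratio 0.86 (0.56 to 1.16).

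The next large subunit members by ratio differed widely in level. Rpl15 had 934 CPM in medial and 531 CPM in lateral cells, log2 ratio 0.82 (0.78 to 0.85). Rpl10, an X-linked gene whose protein is among the last to join the large subunit, had 268 and 156 CPM, log2 ratio 0.78 (0.72 to 0.84). Summed with its copies Rpl10l and Rpl10-ps3 it had 549 and 447 CPM, log2 ratio 0.30 (0.26 to 0.33), and Rpl10-ps3 alone held 6576 medial and 6666 lateral UMIs. Rpl6 had 1295 and 783 CPM, log2 ratio 0.73 (0.70 to 0.75). Rpl7a, Rpl35 and Rpl38 had log2 ratios of 0.45, 0.45 and 0.34. The medial level was the higher in each of these members, and the interval of each member alone lay wholly above 1.2-fold. The interval of the Rpl10 sum reached just below 1.2-fold. Apart from Rpl10 and Rpl6, the members of this group were named after their values were seen.

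In the small subunit Rps27, a zinc-finger protein, had 104 CPM in medial cells (2430 UMIs) and 52.9 CPM in lateral cells (1219 UMIs), log2 ratio 0.97 (0.87 to 1.07). Rps27rt, with the same coding letters, had 454 and 264 CPM, log2 ratio 0.79 (0.74 to 0.83). Rps28 had 2177 CPM in medial and 1377 CPM in lateral cells, log2 ratio 0.66 (0.64 to 0.68). Rps21 and Rps12, named after their values were seen, had log2 ratios of 0.37 (0.34 to 0.40) and 0.37 (0.18 to 0.57). Rps12 had 502 UMIs in medial and 381 in lateral cells, its interval reached below 1.2-fold, and summed with Rps12-ps3 it had a log2 ratio of 0.15. Rps28, Rps29 and Rps21 have short coding sequences of 207, 168 and 249 bases. The shorter Rpl41 and Rpl39, with 75 and 153 bases, lay within 1.2-fold, and the longer Rpl6 and Rpl7a, with 888 and 798, past it. Over 84 members the log2 ratio and the coding length had a Pearson r of -0.21 and a Spearman rho of -0.38, a description over genes that share 2 libraries.

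Lower members were few and their differences small. Rpl6l, an L6-like symbol, was the one past the fold, with 273 CPM in medial and 358 CPM in lateral cells, log2 ratio -0.39 (-0.44 to -0.34). Rps27l, a copy of Rps27 that p53 is known to induce, had 386 and 445 CPM, log2 ratio -0.20 (-0.24 to -0.16). Rpl22l1, the copy of Rpl22, had 882 and 951 CPM, log2 ratio -0.11. Rpl3, Rpl29 and Rps2 had log2 ratios of -0.10, -0.08 and -0.06. Rps19bp1, which encodes a binding partner of Rps19 and no part of the ribosome, had 50.6 CPM in medial and 55.1 CPM in lateral cells, log2 ratio -0.12 (-0.24 to -0.01).

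Members with known roles beyond a structural place were mostly near the middle. Of the stalk proteins, which recruit elongation factors, Rplp0 had 3170 CPM in medial and 3115 CPM in lateral cells, log2 ratio 0.03. Rplp1 had 2413 and 2190 CPM and Rplp2 1586 and 1378 CPM, with log2 ratios of 0.14 and 0.20. Rps6, the substrate of the S6 kinases, had 2534 and 2599 CPM, log2 ratio -0.04. Rpl5 and Rpl11, which bind Mdm2 when ribosome assembly is disturbed, had log2 ratios of 0.13 and 0.10. Rpsa, also known as a laminin receptor, had 1296 and 1179 CPM, log2 ratio 0.14. Rps27a, made as a fusion with ubiquitin, had 2808 and 2664 CPM, log2 ratio 0.08. The X-linked Rps4x, Rpl36a and Rpl39 had log2 ratios of 0.02, 0.10 and 0.22, all within 1.2-fold, unlike X-linked Rpl10.

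Some copies ran with their partners and some against them. Rpl22, at 738 CPM in medial and 669 CPM in lateral cells, had a log2 ratio of 0.14, and summed with Rpl22l1 the pair stood at 1620 and 1620 CPM, log2 ratio 0.00 (-0.02 to 0.02). Rpl6 and Rpl6l together had 1568 and 1140 CPM, log2 ratio 0.46. Rps27 and Rps27rt together had 558 and 316 CPM, log2 ratio 0.82, so the UMIs counted for the pair differed whichever copy they were given to. That sum does not cover reads left uncounted or given to other genes. With Rps27l added it was 944 and 761 CPM, log2 ratio 0.31 (0.28 to 0.34). Rpl36al, with 645 and 623 CPM, and its partner Rpl36a had log2 ratios of 0.05 and 0.10. Rpl7l1, a factor of ribosome assembly, had 62.5 and 60.9 CPM, and its interval held a ratio of 1. Rpl3l, the striated muscle copy of Rpl3, had 2 UMIs in medial and 3 in lateral cells, and Rpl10l, known from male germ cells, had 23 and 33.

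Coding sequence shared with other genes was set beside the ratios, and over all members the relation was weak. Each coding sequence was read in windows of 57 bases, the length of the transcript reads, and a window counted as shared when a transcript of another gene in GENCODE M21 also held it. Of 41 members with at least 90% of windows shared, 13 (31.7%) were past 1.2-fold higher and 0 lower, with a median log2 ratio of 0.13. Of 43 measured members under 90%, 3 (6.98%) were past the fold higher and 0 lower, with a median of 0.08. Those 3 were Rpl35, Rps21 and Rpl39l. Among genes that are no members the shares past the fold higher were 16.2% of 222 with at least 90% shared and 6.41% of 9258 under it. The 90% limit was chosen after the values were seen, and Rpl35, at 89.1%, lay just under it. Over 84 members the log2 ratio and the share of windows had a Pearson r of 0.21 and a Spearman rho of 0.28. Rpl6l had no coding transcript in that annotation and no value.

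The higher members were also the less abundant ones. The 16 higher members had a median level of 576 CPM in medial and 388 CPM in lateral cells, and 13 of the 16 had at least 90% of windows shared. The 68 members within 1.2-fold had medians of 2061 and 2012 CPM, and 28 of them had at least 90% shared. Over 85 members the log2 ratio and the log10 of the lateral CPM had a Pearson r of -0.57 and a Spearman rho of -0.46, although the lateral level enters both. The sources used here do not say how reads that match several genes were counted, and the part of sharing in these ratios was not tested. The level of a member with shared windows is therefore uncertain, whatever its ratio. Of 30 measured members with 100% of windows shared, 11 (36.7%, against 7.42% of all genes) were past the fold higher and 19 within it. Rps27, Rps27rt, Rpl23a, Rpl27, Rpl9, Rpl10, Rps28 and Rps29 are among the 11. Rpl41, Rpl13 and Rps6 are among the 19.

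**Figure D2:**
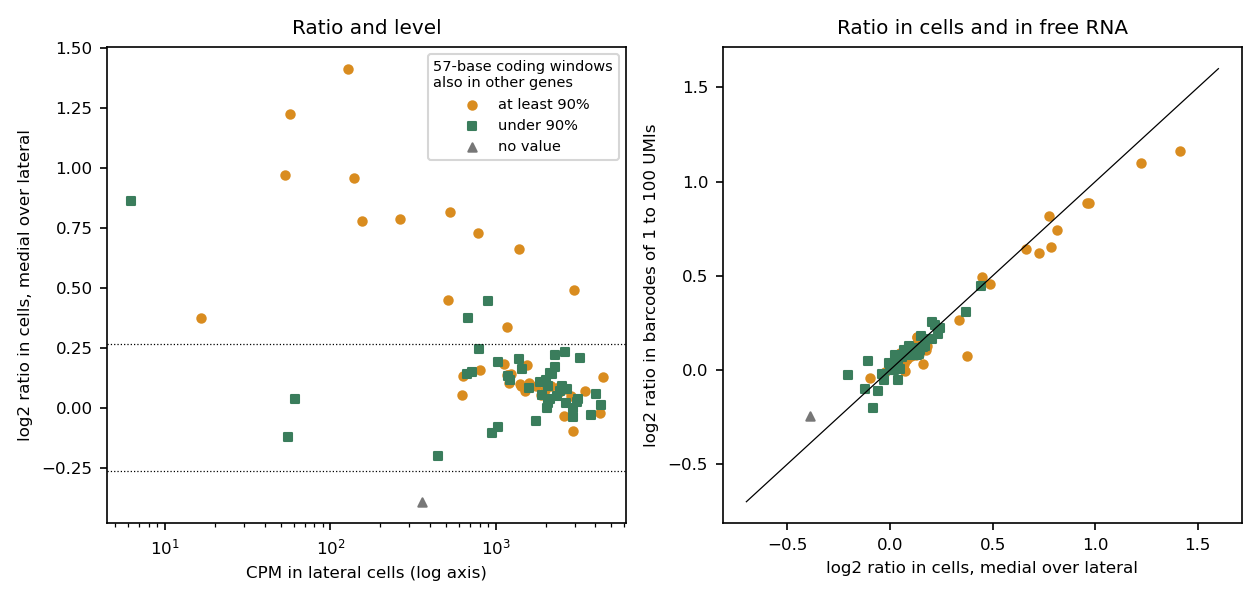
Left, the log2 ratio of each member, medial over lateral, against its level in lateral cells in CPM on a log axis, with dotted lines at 1.2-fold; right, the log2 ratio in cells against that in free RNA, with the line of equal values, for 84 members with at least 100 free UMIs. The members past the fold lie mostly under 1000 CPM and carry the mark for at least 90% shared windows, and the ratios in free RNA follow those in cells.

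Most of these members were higher outside the cells too. In free RNA Rpl23a had 305 CPM in the medial and 136 CPM in the lateral library, log2 ratio 1.16 (1.02 to 1.31). Rps28 had 1987 and 1271 CPM, log2 ratio 0.64 (0.60 to 0.69). Of the 15 higher members with at least 100 free UMIs, 15 were higher and 14 past 1.2-fold higher in free RNA as well. Rpl39l, under that minimum, had 38 medial and 41 lateral free UMIs and a log2 ratio of -0.18 (-0.86 to 0.49), an interval that held a ratio of 1. Of 68 members within 1.2-fold in cells, 55 were higher and 0 past the fold higher in free RNA. Of the 9843 genes measured in cells, 6068 had at least 100 free UMIs, and of these 11.0% were past 1.2-fold higher and 12.1% past it lower. Those shares cover genes of any ratio in cells, while the 15 members were chosen by a high ratio there. The share among all genes so chosen is not given here. Over 84 members the ratios in cells and in free RNA had a Pearson r of 0.98 and a Spearman rho of 0.90. The 2 measures come from the same libraries and are not independent of each other.

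Ribosomal proteins that carry other names were read from a list chosen with earlier results known. Fau, a fusion of a ubiquitin-like protein with a small subunit protein, had 122 CPM in medial and 71.5 CPM in lateral cells, log2 ratio 0.77 (0.69 to 0.86). All of its coding windows were shared with other genes. Gnb2l1, the scaffold protein Rack1 of the small subunit, had 644 and 571 CPM, log2 ratio 0.17, with 0.670% of windows shared.

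Other genes of translation stayed within 1.2-fold almost throughout, but so did most genes. Over all 9843 genes with at least 100 UMIs, 8376 lay within it, 7.42% past it higher and 7.49% past it lower. Of 13 elongation and associated factors, 0 were past the fold in either direction, with a median log2 ratio of 0.01. The one with most UMIs, Eef1a1, which delivers aminoacyl-tRNA, had 4908 CPM in medial and 4645 CPM in lateral cells, log2 ratio 0.08. Tpt1 and Eef1b2 had 0.14 and 0.11 at the upper end, and Eef1e1 and Pabpc1 had -0.13 and -0.11 at the lower. Of 29 initiation factors and 33 genes of ribosome assembly, 0 were past the fold either, with medians of -0.01 and -0.03. Eif1, which guards the choice of the start codon, had 1266 and 1172 CPM, Ddx21, a nucleolar helicase, had 52.6 and 44.5 CPM, and Wdr12 20.6 and 24.3 CPM. Of 76 mitochondrial ribosomal proteins, 0 were past the fold higher and 1 lower, Mrpl22, with a median of -0.09.

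Regulators of TOP messages and of growth were low in UMIs. Of 21 measured, Myc, which drives ribosomal protein transcription, was past the fold higher, with 321 UMIs in medial and 244 in lateral cells, log2 ratio 0.37 (0.13 to 0.62). Tsc1, which restrains mTOR, and Mxd1, an antagonist of Myc, were past the fold lower, with log2 ratios of -0.36 (-0.66 to -0.06) and -0.31 (-0.52 to -0.11). Each of these intervals reached inside 1.2-fold. The list thus had 4.76% past the fold higher and 9.52% lower, near the 7.42% and 7.49% over all genes. Rheb, the activator of mTOR and the one with most UMIs, had 199 CPM in medial and 203 CPM in lateral cells. The median over the list was -0.05.

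Cells within a library differed far more in their ribosomal protein share than the libraries did. In the medial library the share per cell ranged from 3.57% to 29.1%, with a median of 15.6% and quartiles of 13.4% and 17.9%. In the lateral library it ranged from 3.44% to 27.95%, with a median of 14.6% and quartiles of 12.3% and 17.0%. The standard deviation over cells was 3.58 percentage points in medial and 3.54 in lateral cells, where binomial counting at these depths gives 0.394 and 0.405. The spread was thus 9.08 and 8.74 times that of counting, and with each cell thinned to 3869 UMIs 5.95 and 6.10 times. The difference of the medians, by contrast, lay inside the interquartile range of either library.

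**Figure D3:**
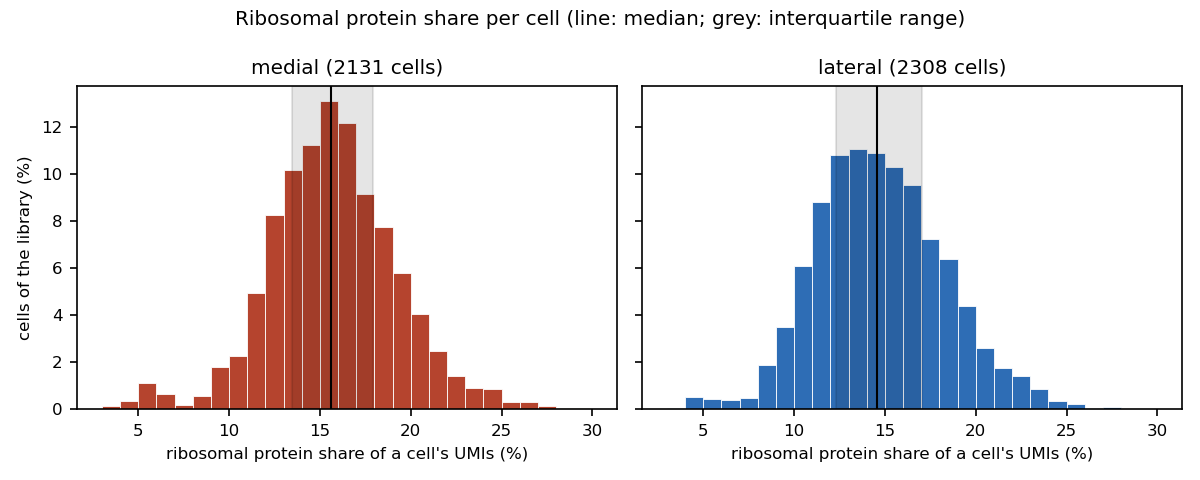
The share of each cell's UMIs in ribosomal protein genes, in bins of 1 percentage point, as a percentage of the cells of the medial (left) and lateral (right) library; the line is the median and the grey band the interquartile range. Both distributions are broad and overlap over nearly all of their range, with the medial median at 15.6% and the lateral at 14.6%, and the medial one has a small separate rise of 24 cells between 5% and 6%.

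Large and small subunit messages varied together. Among cells thinned to 3869 UMIs, which left 2000 medial and 2077 lateral cells, the 2 shares had a Pearson r of 0.93 in each library. Over all cells and all of their UMIs, large over small subunit UMIs had a median of 1.40 per medial cell, with 5th and 95th percentiles of 1.27 and 1.55, and 1.39 per lateral cell, with 1.26 and 1.57; in thinned cells the medians were 1.39 in medial and 1.40 in lateral cells. The standard deviation of that ratio over all cells was 0.0897 and 0.0999, against 0.0817 and 0.0881 from counting, or 1.10 and 1.13 times. The balance of the subunits was thus spread little more than counting gives, while the total was spread many times more. Both shares are parts of 1 total, so they share the depth of a cell.

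**Figure D4:**
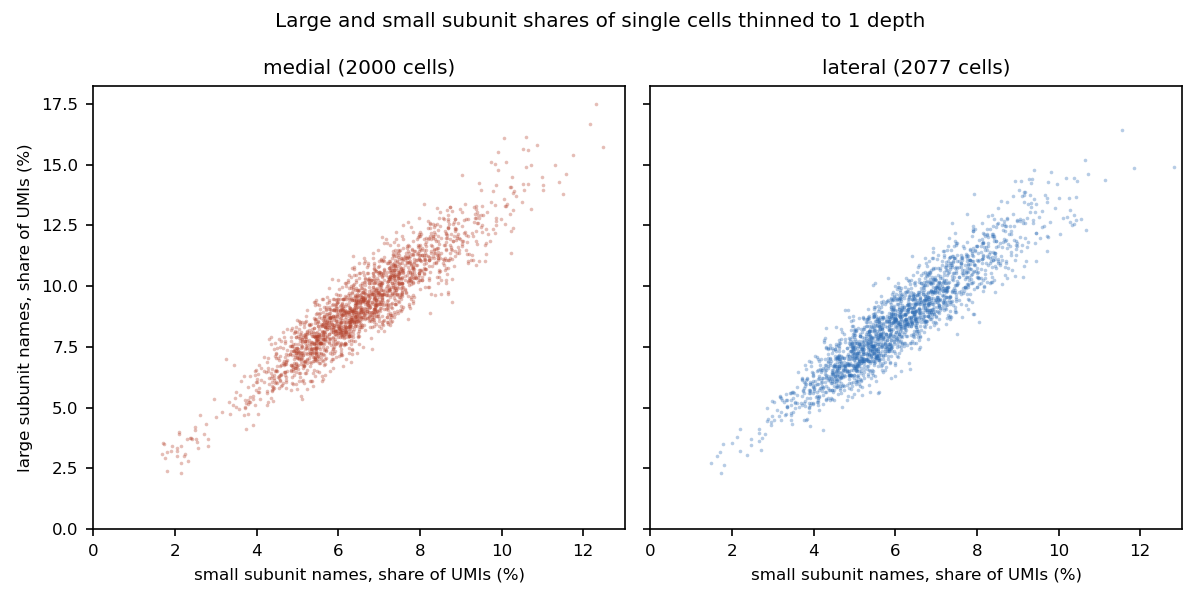
Each point is 1 cell thinned to 3869 UMIs, 2000 medial (left) and 2077 lateral (right), with the share of UMIs in small subunit names on the x axis and in large subunit names on the y axis, in percent. In both libraries the points follow 1 line through a wide range of totals, with a Pearson r of 0.93.

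Single members followed the rest of their group to different degrees. Across thinned cells the correlation of a member's UMIs with the share of the other members had a median of 0.46 over 85 members in medial and 0.48 in lateral cells. It was highest for Rpl32, with 0.67 and 0.69, and lowest for Rpl7l1, with 0.00 and 0.00. Low counts lower such values, so Rps27l is best set beside members of a like level. Rps27l averaged 1.42 UMIs per thinned medial cell and 1.71 per lateral cell and had correlations of 0.03 and 0.02. Rps27rt, with 1.83 and 1.05 UMIs per cell, had 0.29 and 0.25, and Rpl6l, with 1.04 and 1.41, had 0.19 and 0.27.

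The cells at the low end of the distribution differed from the rest in depth and mitochondrial share, and those at the high end differed less. Of medial cells 52 (2.44%) had a share under 8%, and of lateral cells 43 (1.86%). Their median depth was 4913 UMIs in medial and 4105 in lateral cells, against 10975 and 9883 in the cells of 8% to 22%. Their median mitochondrial share was 6.20% and 5.41%, against 2.21% and 2.46% in the cells of 8% to 22%. A share over 22% was found in 84 medial (3.94%) and 68 lateral cells (2.95%), with median depths of 9022 and 7660 UMIs and 2.34% and 2.88% mitochondrial UMIs. The low end formed a small rise of its own in the medial library, where 24 cells had a share of 5% to 6% and 4 cells one of 7% to 8%, against 10 and 11 lateral cells. The limits of 8% and 22% were set after the values were seen. The part of depth and RNA quality in the low end was not tested. Over all cells the share had a Pearson r with log10 total UMIs of 0.01 in medial and -0.11 in lateral cells.

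The deepest cells had the lowest median share in each library. When each library was split by total UMIs into 4 groups of equal size, the deepest group had median shares of 14.95% (medial) and 13.05% (lateral). The other 3 groups lay between 15.8% and 16.1% in the medial and between 14.9% and 15.2% in the lateral library. Medial was the higher in all 4 groups.

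The share was then read along 9 gene lists of cell states, in thinned cells. For each list the 10% of cells highest in it were set beside the lowest 10%, with the list's own UMIs left out of the total. Where more than 10% of cells had no UMI of a list, as for cycling and MHC class II genes, all of those were the lowest. Cells highest in damage response genes, such as Spp1, Lpl and Gpnmb, had a median share of 14.5% in medial and 13.2% in lateral cells, against 16.9% and 17.1% in the lowest. Their median depth before thinning was 12867 UMIs in medial and 12096 in lateral cells, against 9034 and 8241 in the lowest. That difference of shares, -2.38 and -3.81 points, was the most negative of the 9 in each library. Cells highest in homeostatic genes also had less than the lowest, 16.1% against 17.0% in medial and 14.9% against 16.8% in lateral cells. The cells highest in either list thus had a lower median share than the cells lowest in it.

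Cells highest in 3 lists of activation and division had lower median shares as well. Cells highest in immediate early genes, which dissociation is known to induce, had 14.1% against 16.2% in medial and 12.4% against 14.7% in lateral cells. For cytokine genes the highest had 14.9% against 16.4% in medial and 13.2% against 15.3% in lateral cells. For cycling genes they had 14.5% against 16.2% in medial cells, where the lowest were the 538 cells with no UMI of the list, and 12.8% against 15.3% in lateral cells, with 553. Cycling cells were deeper as well, with medians before thinning of 14420 UMIs against 10695 in medial and 13324 against 9679 in lateral cells. The part of depth in any of these lists was not tested beyond the thinning.

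The lists of interferon, MHC class II and integrated stress response genes showed less, or differed between the libraries. Interferon genes gave 15.3% against 15.2% in medial and 13.9% against 14.3% in lateral cells. MHC class II genes gave a difference of -1.11 points in medial cells, against the 306 with none, and of 0.14 points in lateral cells, against 330, and genes of the integrated stress response -0.11 and -1.21 points. Mitochondrially encoded genes ran the other way from most lists. The cells highest in them had 17.0% against 14.9% in medial and 17.3% against 12.4% in lateral cells, differences of 2.13 and 4.84 points. These highest cells were shallower before thinning, with medians of 7122 UMIs against 10780 in medial and 6598 against 10149 in lateral cells. Over all thinned cells the ribosomal protein and mitochondrial shares had a Pearson r of -0.10 (medial) and 0.20 (lateral) and a Spearman rho of 0.09 and 0.30, so the medial relation changed sign with the measure. The interquartile ranges of the highest and lowest cells overlapped in every list but this one in lateral cells, where they ran from 15.2% to 19.7% and from 10.6% to 14.8%. Large over small subunit UMIs stayed between 1.37 and 1.42 in all of these groups of cells.

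**Figure D5:**
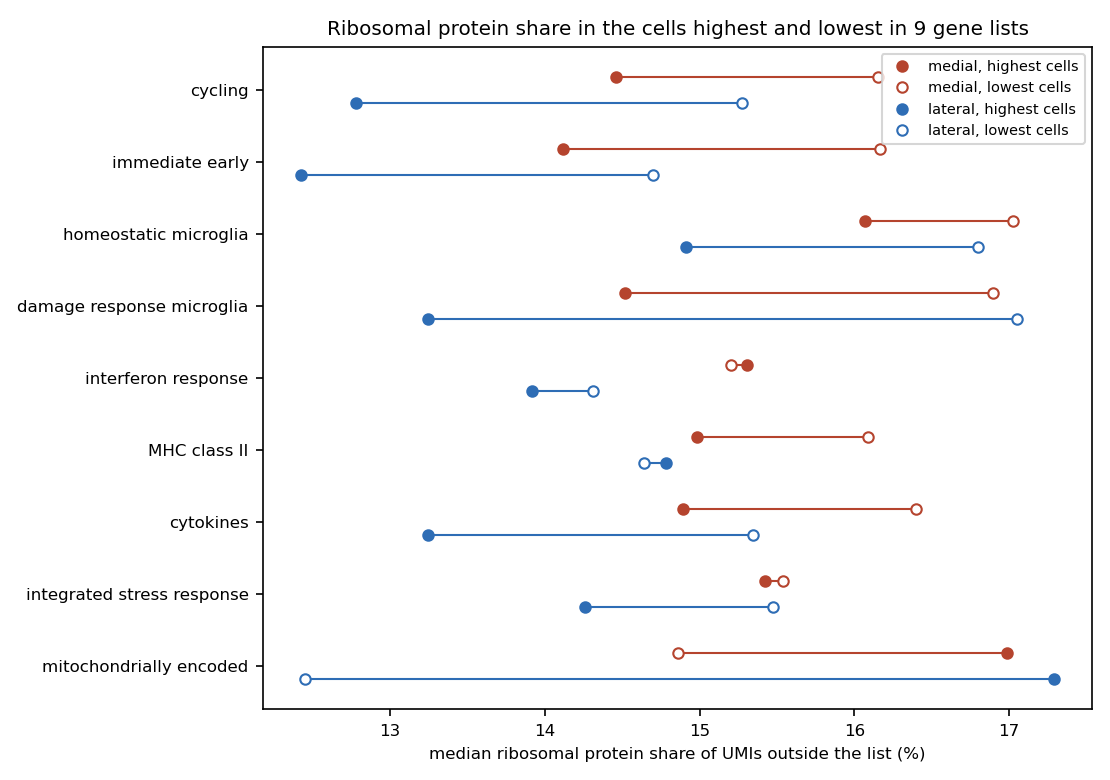
For each of 9 gene lists, the median ribosomal protein share, in percent of UMIs outside the list, of the 10% of cells highest in the list (filled) and of the lowest cells (open; the lowest 10%, or all with no UMI of the list), in medial (upper line) and lateral (lower line) cells thinned to 3869 UMIs. Filled points lie left of open ones for damage response, immediate early, cytokine, cycling and homeostatic genes in both libraries, and right of them for mitochondrially encoded genes.

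Within the ribosomal protein UMIs, few members changed their part along these lists alike in both libraries. The measure was a member's UMIs per ribosomal protein UMI in the highest over the lowest cells, and a member was taken when both intervals lay on 1 side of a ratio of 1 and both values were past 1.2-fold. Rps27l was such a member in 5 of the 9 lists. The share of all genes that pass the same rule is not given here, so this count has no baseline. In cycling cells its log2 ratio was 0.95 in medial and 1.01 in lateral cells, on 407 and 484 UMIs in the highest cells. In cells highest in homeostatic genes it was -1.04 and -0.56, and in those highest in immediate early genes -0.72 and -0.44. For MHC class II it was -0.37 and -0.44, and for interferon genes 0.41 and 0.43.

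Rps27rt ran against Rps27l where both were taken. Its log2 ratio was -0.54 in medial and -0.54 in lateral cycling cells, and 0.38 and 0.56 in cells highest in homeostatic genes. Rps9, a core protein at the mRNA entry, was the one core member taken, with 0.44 and 0.48 in cells highest in homeostatic genes, on 2168 and 2238 UMIs. Rps19bp1 had 0.69 and 0.73 in cycling cells, on 52 and 57 UMIs. These cells were picked by lists that hold none of the members, and the cells of a library are not replicates.

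Outside the ribosome, the genes most like the ribosomal protein share over cells were named by correlation. For 1346 genes with at least 1 UMI per cell on average, the log2 of UMIs per 10000 non-ribosomal UMIs plus 1 was set against the share, in 2131 medial and 2308 lateral cells. Eef1a1 was highest, with a Pearson r of 0.75 in medial and 0.73 in lateral cells. It was followed by the gene model Gm9843 (0.57 and 0.60), the elongation factor Eef2 (0.52 and 0.53), Tpt1 (0.57 and 0.51) and the poly(A)-binding protein Pabpc1 (0.47 and 0.51). Cox7a2l, Pfdn5 and Naca, which binds chains leaving the ribosome, completed the first 8. Eef1a1, Eef2, Tpt1 and Pabpc1 are themselves known TOP messages.

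The genes most opposite to the share were of another kind. Cd9, a tetraspanin, had -0.41 in medial and -0.46 in lateral cells. Psap, Lgmn, Ctsz, Ctsd and Grn, which encode proteins of the lysosome, and Hspa5, a chaperone of the endoplasmic reticulum, were also among the lowest 8, between -0.31 and -0.37 in medial and between -0.35 and -0.43 in lateral cells. Ctsd, for one, had 29073 CPM in medial and 28173 CPM in lateral cells. All of these correlations describe cells of 1 library each, and the points share that library and its depth.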

How the data were processed

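The authors deposited whole-number counts of UMIs per gene and barcode for 27998 gene rows and 737280 barcodes in each library, with no normalization, so barcodes without a cell were included. Cell Ranger 2.0.1, STAR and mm10 were named, per the submitters' processing notes; the gene annotation was not. Sequencing used transcript reads of 57 bp, per the series' design text. The libraries held 28660496 UMIs (medial) and 27955414 UMIs (lateral).

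Rows of the 56 symbols with several gene IDs were summed. Barcodes with at least 2400 UMIs and at most 10% mitochondrial UMIs were called cells, and the mitochondrial limit removed 3 in each library. Scrublet (scanpy 1.11.5, expected doublet rate 0.05) marked 4 medial and 5 lateral cells, too few to take as a working call. They were kept, and leaving them out was an alternative. UMIs were summed over cells and scaled to a fixed total (CPM). Ratios have exact conditional binomial 95% intervals, and neither these nor any other intervals cover more than counting error. Genes needed at least 100 UMIs over both libraries, and 1.2-fold was a limit of size, not a test. With 1 library per region no test was made and no p-value is given.

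For values at equal depth, 3869 UMIs were drawn at random from each cell (the 10th percentile of lateral cells' totals), which dropped 131 medial and 231 lateral cells. Coding windows came from GENCODE M21 (GRCm38), which need not be the authors' annotation, and the deposited UMIs come from 3' ends, where untranslated sequence is also read. Promoter starts came from RefSeq (GRCm38.p6). No protein sequences were used here. The ratio and its limits were tested on simulated gene totals that held counting error only. That test does not cover the spread between cells or between libraries. Analyses were run in Python 3.11.15 with scipy 1.17.1.

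Named were the 5 members with most UMIs in each subunit, the 4 highest and 4 lowest of each subunit by ratio, the copies with their partners, and members with a known role or few UMIs. From each other list came the gene with most UMIs and those farthest from a ratio of 1, and 8 genes at each end of the correlation with the share. Some genes that these rules name are not reported here. Other named genes were chosen after their values were seen. The members, the gene lists and the limits were chosen with earlier results of these data known.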

Additional observations from a re-analysis of the deposited data

Results flagged for a closer look

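The 16 symbols with -ps, processed copies that the member rule leaves out, held UMIs in the cells of both libraries. Their summed level was 2155 CPM in medial and 1959 CPM in lateral cells, a share of 0.216% and 0.196% and a log2 ratio of 0.14 (0.12 to 0.16). They stand here because these rows lie outside the comparison and carry signal far above the limit that a count of 0 allows. Of 15 with at least 100 UMIs, 7 (46.7%) were past 1.2-fold higher in the medial library and 1 (6.67%) was past it lower. Over all genes with at least 100 UMIs the shares were 7.42% and 7.49%. Rpl36-ps3 had 146 CPM in medial and 77.7 CPM in lateral cells, log2 ratio 0.91. Rpl23a-ps3 had 440 and 355 CPM, log2 ratio 0.31, and summed with Rpl23a the 2 rows had 779 and 483 CPM, log2 ratio 0.69 (0.66 to 0.72). Rpl27-ps3 had 156 and 110 CPM, and with Rpl27 the sum was 289 and 167 CPM, log2 ratio 0.79 (0.74 to 0.85). Rps12-ps3 held 6389 medial and 5704 lateral UMIs, many more than Rps12 itself, and their sum had a log2 ratio of 0.15 (0.10 to 0.20). Rpl9 summed with its 2 -ps rows had 460 and 347 CPM, log2 ratio 0.41 (0.37 to 0.45). In each of these 4 sums the medial level was higher and the ratio nearer to 1 than that of the member alone.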

How the results depend on the processing

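No paired analysis was possible because each region has 1 library and they share 1 replicate number. The direction of every summed ratio and median stayed the same under all alternatives run. The log2 ratio of the summed share, then of the large and of the small subunit share, was 0.12, 0.12 and 0.12 with cells of at least 5000 UMIs, 0.12, 0.12 and 0.11 with at most 5% mitochondrial UMIs, and 0.11, 0.11 and 0.11 per UMIs without mitochondrially encoded genes. It was 0.091, 0.091 and 0.090 with each cell counted alike and 0.10, 0.10 and 0.10 with cells thinned to 3869 UMIs. With core ribosomal proteins, those of other names included, the summed and large subunit values were 0.11 and 0.12. Without the members of at least 90% shared coding windows, an alternative chosen after seeing the data, they were 0.080, 0.10 and 0.059, the median log2 ratio was 0.079 and 3 members were past 1.2-fold higher instead of 16. Centred on the median gene, the median log2 ratio was 0.14. The 1 member past 1.2-fold lower became 0 with core proteins, 2 in thinned cells and 3 with members of at least 1 UMI.

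The median share per cell, medial then lateral, was 15.5% and 14.5% with cells of at least 1000 UMIs, 15.7% and 14.6% with at most 5% mitochondrial UMIs, 16.001% and 14.98% without mitochondrially encoded genes, 15.4% and 14.3% with core proteins, 15.6% and 14.5% in thinned cells, and 8.64% and 8.26% without the members of shared windows. It was 14.4% in lateral cells of at least 5000 UMIs. The medial share stayed above the lateral one in each of these. Large over small subunit UMIs had medians of 1.39 and 1.38 with core proteins, 1.39 and 1.40 in thinned cells, and 1.24 and 1.21 without the members of shared windows. Of 425 values for 85 single members, 8 changed sign, 0 of them for members past 1.2-fold; the cause of these changes was not tested.

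Counts limit Rps12, Rpl39l, Rpl3l and Rpl10l, and replication limits everything else: 2 libraries cannot separate region from mouse, sort or library.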
